A study of Mus musculus with 72 samples.

Results

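Slc16a1, which encodes the monocarboxylate transporter MCT1, is described here together with 5 genes of the brain capillary wall: Cldn5, Slc2a1, Abcb1a, Slco1c1 and Pecam1. The 6 genes were taken by symbol from the gene count table of the suprachiasmatic nucleus (SCN), where they are 6 of 15759 genes, and followed into the liver table of 22823 genes. All 6 passed the filter on low counts in both tables. The choice rested on an earlier view of these data, in which Slc16a1 stood out by diet in the SCN and the other 5 did not, so the members were chosen by their measured SCN diet values, which are given as a description without a test.

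The central circadian clock of mammals lies in the SCN, a small nucleus of the hypothalamus. All mice were C57BL/6 (C57BL/6J in the growth protocol), 8 to 12 weeks old and singly housed, and ate a diet lacking methionine and choline (MCD) or an isocaloric control diet for 11 days. They spent 10 days in 12 h light and 12 h dark and the last day in constant darkness, when they were killed at circadian times (CT) CT0, CT4, CT8, CT12, CT16 and CT20, which covers 1 cycle. Tissue, diet and time formed 24 groups. By the sample labels, each had 3 libraries (2 male, 1 female), or 18 for a diet in a tissue. The female is replicate 3 in every group, so a difference by sex cannot be told apart from one by replicate number. The SCN was laser-microdissected from 23 sequential sections of 25 µm, and liver came from about 40 mg at the centre of the left lobe. MCD feeding is a dietary model without a genetic change. Only males are named in the protocol, but sex is taken here from the sample labels. The labels do not say which liver and SCN libraries share a mouse.

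Brain capillary endothelium forms the blood-brain barrier: its cells are sealed to each other by tight junctions and move nutrients, hormones and drugs through dedicated carriers. MCT1 carries lactate, pyruvate and ketone bodies across membranes. In brain it is best known from endothelium, but astrocytes, oligodendrocytes and ependymal cells also make it. Cldn5 encodes claudin-5, the main sealing protein of the barrier's tight junctions. Slc2a1 encodes the glucose transporter GLUT1, Abcb1a the drug exporter P-glycoprotein, Slco1c1 the thyroxine carrier OATP1C1, and Pecam1 an adhesion protein of endothelial junctions in all organs.

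Promoters of 3 genes are shown because these are the genes whose SCN level followed circadian time (below), and clock factors act through short promoter motifs. RefSeq promoter entries (build GRCm38.p6) were matched by symbol for 5 of the 6 genes. Each sequence holds the 250 bases before the annotated start, on the + strand, at chr3:104638414-104638663 for Slc16a1, chr16:18776597-18776846 for Cldn5 and chr5:8566841-8567090 for Abcb1a. Capitals mark a motif match.
Slc16a1: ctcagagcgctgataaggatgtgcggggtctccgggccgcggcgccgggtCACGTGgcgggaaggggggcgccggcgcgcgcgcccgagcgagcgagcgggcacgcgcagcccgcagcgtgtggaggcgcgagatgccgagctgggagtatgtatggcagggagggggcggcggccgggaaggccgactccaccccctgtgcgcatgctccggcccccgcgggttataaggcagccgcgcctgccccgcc
Cldn5: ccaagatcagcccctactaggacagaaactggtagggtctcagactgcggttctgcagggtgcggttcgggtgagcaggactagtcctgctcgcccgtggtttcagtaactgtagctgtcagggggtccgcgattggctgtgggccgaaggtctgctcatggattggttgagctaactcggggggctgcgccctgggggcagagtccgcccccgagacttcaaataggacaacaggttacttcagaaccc
Abcb1a: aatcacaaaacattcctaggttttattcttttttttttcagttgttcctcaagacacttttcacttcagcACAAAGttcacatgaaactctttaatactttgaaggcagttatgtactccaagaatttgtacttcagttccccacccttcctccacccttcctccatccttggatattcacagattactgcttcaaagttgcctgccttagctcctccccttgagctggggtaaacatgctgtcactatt

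Motifs were searched on both strands: the E-box CACGTG, the D-box TTANGTAA, the ROR element TAGGTCA, the ETS motif CGGAAG, the SOX motif ACAAAG and the cAMP response element TGACGTCA. No match overlapped a match to another motif. The Slc16a1 promoter held 1 E-box, which began 200 bases before the start. The E-box occurs in 6.02% of the 32851 promoters in the table, the D-box in 2.06%, the ROR element in 2.23%, the ETS motif in 13.6%, the SOX motif in 16.5% and the cAMP element in 1.55%. Abcb1a held a SOX match 180 bases before its start, and Slco1c1 held another at 140 bases. None of these letters occurs in the windows of Cldn5 and Slc2a1. The Slc16a1 window was rich in G and C (76.4%), against a median of 52.4% over all promoters, and that of Abcb1a was poor in them (40.4%).

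Total gene counts ran from 23.4 M to 79.8 M per SCN library and from 52.6 M to 86.7 M per liver library, and 5 SCN libraries lay under 30 M. Levels are in CPM, the gene's counts per fixed number of library counts with library sizes scaled by TMM, and they are compared between samples and never between genes, since the table gives no lengths. A gene is called changed when its adjusted p is under 0.05. In liver, libraries fell into 2 kinds by the level of the mitochondrial gene mt-Nd6: 21 libraries at 33.0 to 133 CPM (8 control, 13 MCD) and 15 at 380 to 1035 CPM (10 control, 5 MCD). The liver library labelled control CT08 a also stood apart from its group, and liver results are given without it where that changes them.

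Slc16a1 was lower on MCD than on the control diet in the SCN at every time. The control level was 30.01 ± 3.98 CPM and the MCD level 25.3 ± 3.48 CPM (SD, n = 18 each), a fitted log2 change of -0.25 ± 0.05 (SE). At CT4, when it was highest on either diet, the control libraries held 40.5, 35.9 and 34.1 CPM and the MCD libraries 30.5, 31.8 and 26.6 CPM. At CT0 the control values were 29.6, 31.4 and 28.0 CPM against 24.9, 21.8 and 25.7 CPM on MCD. At these times all MCD libraries lay below all control libraries.

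At CT12 Slc16a1 stood at 24.9, 25.0 and 27.8 CPM with the control diet and at 23.2, 24.5 and 22.5 CPM with MCD. At CT16 the values were 28.8, 26.3 and 29.7 against 22.5, 25.0 and 20.2 CPM, and at CT20 28.5, 26.6 and 28.2 against 26.0, 20.8 and 25.6 CPM. The gap was smallest at CT12, where the groups were nearly in contact. CT8 was the only time at which the groups overlapped, with 29.9, 32.8 and 32.3 CPM in control libraries and 30.9, 29.3 and 22.8 CPM in MCD libraries. The groups were thus apart at 5 of 6 times. The share of all SCN genes apart at as many times was not determined, and Slc16a1 was chosen by its diet values. Nothing is therefore read from this count. In the diet test that took part in the choice, 0.0635% of all SCN genes were called. Under the alternatives to the fit, the estimate ran from -0.208 to -0.268. In the order of the 12 group means, from 36.8 CPM (control CT4) to 22.6 CPM (MCD CT16), 2 of 11 neighbouring steps exceeded the pooled SD: control CT4 above control CT8, and control CT8 above control CT0.

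**Figure D1:**
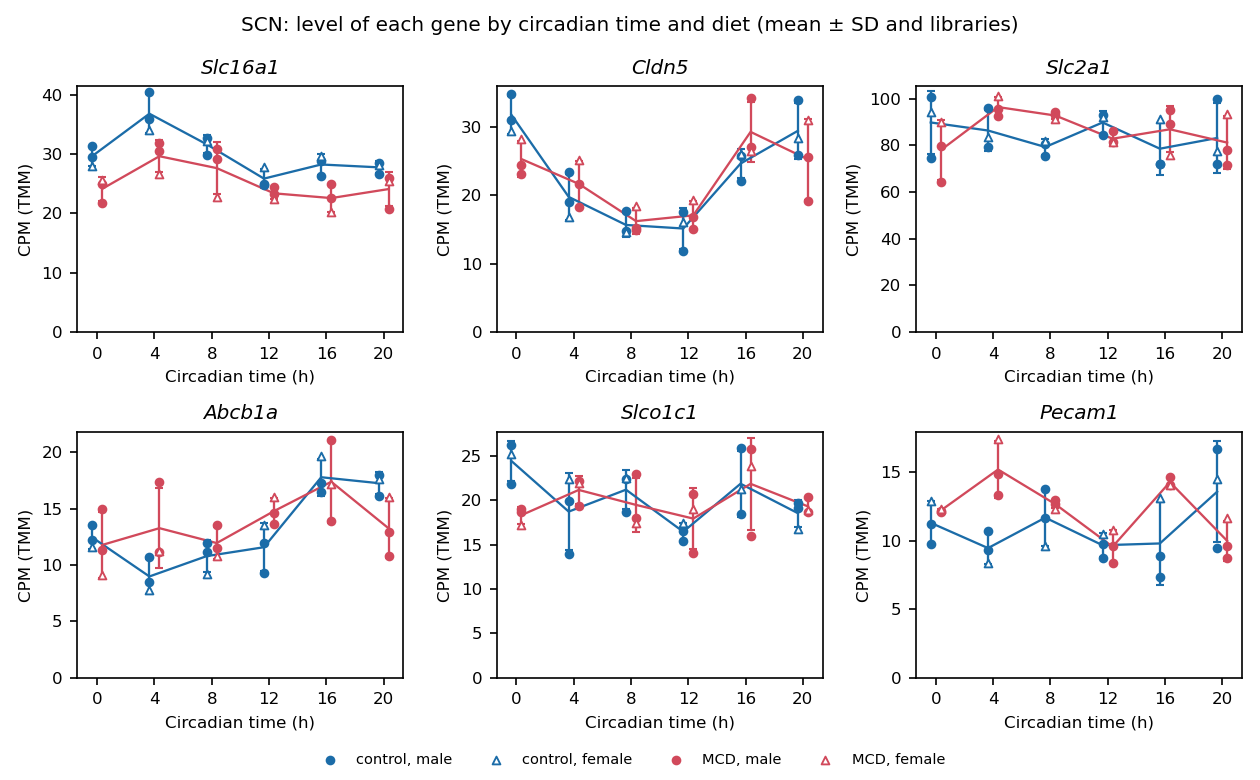
SCN levels (CPM, vertical axis) of the 6 genes by circadian time (horizontal axis, h) on the control diet and MCD. Points are libraries (filled: male, open triangles: female), lines join the means of 3 libraries and bars are SDs. The Slc16a1 means lie lower on MCD at all 6 times, while the lines of the other 5 genes cross.

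The other 5 genes had been chosen without such a difference, and their values are given for description. The tight junction gene Cldn5 stood at 22.7 ± 7.04 CPM (control) and 22.4 ± 5.71 CPM (MCD) (log2 change 0.00 ± 0.07). Slc2a1 was at 84.5 ± 9.88 and 86.3 ± 9.69 CPM (0.03 ± 0.05). Abcb1a was at 13.1 ± 3.59 and 13.7 ± 3.02 CPM (0.09 ± 0.08). Their means crossed between times: Slc2a1 and Abcb1a were lower on MCD at 3 of 6 times and Cldn5 at 2. Slco1c1 was at 20.2 ± 3.54 and 19.7 ± 2.88 CPM (-0.03 ± 0.07), and Pecam1 at 10.9 ± 2.44 and 12.3 ± 2.32 CPM (0.16 ± 0.08; errors are SDs for levels and SEs for changes). Pecam1, with the highest estimate, had all MCD libraries above all control libraries at 2 of 6 times, a count not set against a share of all genes.

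Wider lists of endothelial genes, like the 6 genes chosen with earlier results known, showed no common direction by diet in the SCN. They hold the 6 genes as well, so they are not independent of the choice. By diet 0.0635% of all SCN genes were called. Lists of such sizes, here and below, would therefore mostly hold no called gene. Of 20 pan-endothelial genes, 8 were higher and 12 lower, with a median log2 change of -0.04 against 0.00 over all genes, and none was called. Ly6a (0.47 ± 0.11, adjusted p = 0.104) and Ly6c1 (0.25 ± 0.08, adjusted p = 0.562) had the largest values. The summed level of this list was 172 to 249 CPM in control libraries and 166 to 246 CPM in MCD libraries. Of 12 barrier sealing genes, a list of tight junction genes that also holds Mfsd2a, 8 were higher and 4 lower, and none was called. Mfsd2a is no junction protein but a lipid carrier that keeps transcytosis low, and it had the largest value (0.29 ± 0.08, adjusted p = 0.355). Of 20 barrier transport genes, 11 were higher and 9 lower (median 0.01), with Slc16a1 among the lower. Fewer cells of a type and less RNA per cell cannot be told apart in such bulk samples.

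Among 12 monocarboxylate transporters and their partner proteins, 4 were higher and 8 lower on MCD, Slc16a1 included (median -0.05). Bsg (basigin, which brings MCT1 to the membrane) had a log2 change of -0.03 ± 0.04, and Slc16a7 (MCT2, the neuronal form) of -0.10 ± 0.09. Of 14 genes of ketone body and lactate metabolism, 3 were higher and 11 lower with a median of -0.03, and none was called.

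Markers of other cells lay on either side of 0 by diet in the SCN. All 5 blood cell genes measured were lower on MCD (median log2 change -1.45), none of them called, with Hbb-bt at -1.47 ± 0.30 and Hbb-bs at -1.45 ± 0.31. Their summed level ran from 76.6 to 1518 CPM on control (median 231) and from 43.6 to 395 CPM on MCD (median 116). Of 10 oligodendrocyte genes, 9 were lower (median -0.16), none called, among them Mog (-0.34 ± 0.10). Across libraries of the same group, Slc16a1 had r = 0.03 with the blood cell list (n = 36, permutation p = 0.865) and had r = 0.18 with the oligodendrocyte list (permutation p = 0.293), which was -0.36 within control and 0.57 within MCD. Astrocyte genes went the other way, with 7 of 10 higher (median 0.08) and Glul, the glutamine synthetase of astrocytes, called higher (0.25). SCN neuron genes were higher in 9 of 11, while microglial genes were lower in 7 of 8 (median -0.04) and ependymal genes in 4 of 5 (median -0.08), none of them called. With the astrocyte list Slc16a1 had r = 0.08 (permutation p = 0.674) and with the ependymal list r = 0.32 (permutation p = 0.13). The part of these cells in the Slc16a1 difference was not tested beyond these values.

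The exon bins of Slc16a1 had like values, but they are counts of the same SCN libraries that took part in the choice. They are therefore no separate evidence on the diet difference. Bin CPM are scaled by library totals and not by TMM. All 5 bins were lower on MCD, by log2 values from -0.18 to -0.35 with a median of -0.28. The largest bin went from 15.3 ± 2.16 to 12.6 ± 1.92 CPM (SD, n = 18 each). Whether the relative use of bins differed by diet is a separate measure. In edgeR's exon test 5 of 12916 genes (0.0387%) were called, and the adjusted p was 1 for Slc16a1, Slc2a1, Abcb1a, Slco1c1 and Pecam1. Cldn5 has a single bin and could not be tested.

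Time of day was examined next, since the rhythm averaged over diets does not use the diet contrast. Slc16a1, Cldn5 and Abcb1a followed a 24 h rhythm in the SCN, with 3 different peak times. Slc16a1, the fuel carrier, peaked in the subjective day at CT4.4. Abcb1a, the exporter, peaked in the subjective night at CT17.0, and Cldn5, the sealing protein, later in that night at CT21.0. In this test, edgeR's quasi-likelihood F test of the 24 h cosine and sine components, 34.4% of all SCN genes were called, so 3 of 6 members lies not far from the background.

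Cldn5 had the widest rhythm of the 6 genes in the SCN. Over both diets (n = 6 per time) its lowest, median and highest levels were 23.1, 28.8 and 34.8 CPM at CT0 and 16.8, 20.3 and 25.1 CPM at CT4. At CT8 they were 14.6, 15.1 and 18.4 CPM and at CT12 11.8, 16.4 and 19.3 CPM. All libraries at CT8 and CT12 lay below all libraries at CT0 and CT16. At CT16 the levels were 22.1, 26.2 and 34.2 CPM and at CT20 19.1, 27.1 and 33.9 CPM. The fitted range from trough to peak was 0.95 ± 0.10 log2 units (SE, adjusted p = 3.51e-08). Within the diets it was 1.15 on control and 0.77 on MCD, with peaks at CT21.5 and CT20.4, and the difference between diets was not called (unadjusted p = 0.065, edgeR).

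Abcb1a was highest at CT16. There its lowest, median and highest levels were 13.9, 17.2 and 21.1 CPM, and at CT20 10.8, 16.1 and 17.99 CPM. At CT4 and CT8, its lowest times, they were 7.74, 10.9 and 17.4 CPM and 9.23, 11.3 and 13.5 CPM. At CT0 they were 9.07, 11.9 and 14.9 CPM and at CT12 9.30, 13.6 and 16.0 CPM. Every library at CT16 thus exceeded every library at CT8, while CT4 reached into its range with 1 male on MCD at 17.4 CPM. The fitted range was 0.66 ± 0.11 log2 units (adjusted p = 0.000198). On control it was 0.96 (adjusted p = 0.000327) and on MCD 0.43 (adjusted p = 0.146), but the difference between the diets was not called after adjustment (edgeR: range of the difference 0.70, unadjusted p = 0.0172, adjusted p = 1).

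Slc16a1 had the smallest fitted range of the 3 called genes. Its fitted range was 0.36 ± 0.07 log2 units over both diets (adjusted p = 0.00035). Within a diet 15.1% (control) and 16.1% (MCD) of genes were called. On control the range was 0.38 with a peak at CT4.0 (adjusted p = 0.0158), and on MCD 0.35 with a peak at CT4.9 (adjusted p = 0.0261, edgeR). Over both diets the level rose from 26.9 ± 3.47 CPM at CT0 to 33.2 ± 4.77 CPM at CT4 and returned through 29.7 ± 3.64 CPM at CT8 to 24.6 ± 1.83 CPM at CT12 (SD, n = 6 each). The lower level on MCD and the daily course therefore appeared side by side in the same gene. The difference in rhythm between diets was 0.10 ± 0.13 log2 units (unadjusted p = 0.772, edgeR).

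The other 3 genes were not called rhythmic in the SCN. The fitted range was 0.12 ± 0.07 for Slc2a1 (adjusted p = 0.402), 0.12 ± 0.10 for Slco1c1 (adjusted p = 0.59) and 0.19 ± 0.11 for Pecam1 (adjusted p = 0.357, edgeR). Slc2a1 stayed between 64.2 and 101 CPM in all 36 libraries, and its 6 time means over both diets lay between 82.2 and 91.4 CPM. Slco1c1 ranged from 13.9 to 26.2 CPM and Pecam1 from 7.34 to 17.4 CPM. In the difference of rhythm between diets, 2 of all SCN genes were called (0.0127%) and none of the 6 members (edgeR); at an unadjusted p under 0.05 there were 596 genes (3.78%), with Abcb1a among them, and DESeq2 called 7 genes.

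**Figure D2:**
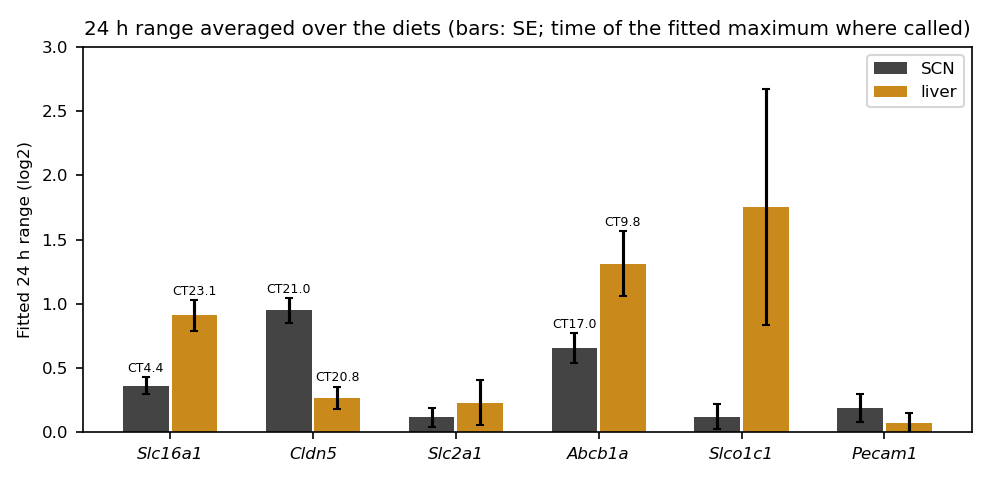
Fitted 24 h range in log2 units (vertical axis) of each gene in SCN and liver, averaged over the diets, with SEs as bars and the time of the fitted maximum where the rhythm was called. Cldn5 has its wide range in the SCN (0.95) and Slc16a1 and Abcb1a in the liver (0.91 and 1.31); the bar of Slco1c1 in liver rests on under 1 CPM.

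Lists of related genes held rhythmic members in the SCN at shares on either side of the background of 34.4%. Of 12 barrier sealing genes, 5 were called (41.7%): beside Cldn5, the lipid carrier Mfsd2a had a range of 0.95 with a peak at CT14.9, Lsr 0.71 with a peak at CT0.4 and Cldn12 0.58 with a peak at CT8.8. Peak times of these genes were spread over the day. Of 20 transport genes, 5 were called (25%), with Slc5a6, a vitamin carrier, at 0.49 (CT7.6) and Slc7a1, an arginine carrier, at 0.35 (CT5.8) beside Abcb1a and Slc16a1. Of 20 pan-endothelial genes, 3 were called (15%): Egfl7 at 0.51 (CT1.4), Nos3, the endothelial nitric oxide synthase, at 0.47 (CT21.6) and Eng at 0.34 (CT21.9). The median range of this list was 0.32 against 0.27 over all genes. Of 13 genes of Wnt signalling and barrier induction, 7 were called (53.8%), with Lef1 at 0.80, Fzd4 at 0.66 and Reck at 0.65.

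Within the families of the members, the shares called lay on either side of the 34.4% over all genes. Of 12 monocarboxylate transporter genes, 3 were called (25%): Slc16a3 (MCT4, the lactate exporter of glycolytic cells) at 1.68 with a peak at CT22.4, Slc16a1, and Bsg at 0.22 with a peak at CT1.8. Slc16a3 was near 2.03 CPM. Of 9 glucose transporters, 3 were called (33.3%): Slc2a13, an inositol carrier (1.98, CT8.3), Slc2a8 (0.44) and Slc2a3, the neuronal GLUT3 (0.35). Of 7 multidrug exporters, Abcb1a and Abcc1 (0.39, CT13.9) were called (28.6%). Of 7 thyroid hormone genes, Hr, Klf9 and Thra were called (42.9%), and Slco1c1 was not. Of 14 ketone body and lactate genes, Angptl4 (1.13) and Bdh1 (0.31, CT4.4) were called (14.3%).

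Some lists of other cell markers held more called genes than the 34.4% over all genes. Of 5 blood cell genes, 4 were called, with ranges from 1.68 (Hbb-bs) to 1.78 (Hba-a1) and peaks at CT19.0 to CT19.1. Within control and within MCD alone, 0 of the 5 were called. The genes of this list moved together (median r 0.98 within groups). Their summed level had medians of 94.7 CPM at CT8, 235 CPM at CT16 and 388 CPM at CT20. The list was thus lower at CT8 than at CT16 and CT20, where Abcb1a and Cldn5 also stood higher. Within groups, r with the blood cell list was -0.09 for Abcb1a (permutation p = 0.59) and 0.20 for Cldn5 (permutation p = 0.312, n = 36 each). Of 5 ependymal genes, 4 were called: Ccdc153 at 0.85, Rarres2 at 0.71 and Tmem212 at 0.69 had peaks between CT3.2 and CT3.6, and Rsph1 at 0.57 had its peak at CT23.6. The peak of Slc16a1 lay at CT4.4, and its r with this list within groups was 0.32 (permutation p = 0.13). Of 10 oligodendrocyte genes, 4 were called (40%), and of 12 mural cell genes, 4 (33.3%), near the share over all genes. The part of these cells in the rhythms of the members was not tested.

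Sex made no called difference to any of the 6 genes in the SCN, where 9.89% of all genes were called between 12 female and 24 male libraries (edgeR). Of these calls, 49.6% were higher in females with TMM and 28.6% with library totals. The log2 difference, female minus male, ran from -0.05 for Slc16a1 (95% interval -0.15 to 0.05) to 0.13 for Pecam1 (95% interval -0.03 to 0.30). For Cldn5 it was 0.09 and for Abcb1a -0.04, with intervals that reached 0.24 and -0.22.

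How far the 6 genes vary together bears on the label that joins them. Deviations from the group mean were correlated over the 36 SCN libraries for all 15 pairs, with libraries permuted within their groups. Positive values prevailed but were moderate. The highest were Cldn5 with Slc2a1 (r = 0.43, rho = 0.39, permutation p = 0.0227), Slc16a1 with Abcb1a (r = 0.43, rho = 0.41, p = 0.0488) and Slc16a1 with Slc2a1 (r = 0.42, rho = 0.37, p = 0.0179). Without the 2 farthest libraries these r were 0.39, 0.36 and 0.41. With group means kept they were 0.05, -0.29 and 0.26. The smallest p adjusted over the 15 pairs was 0.113, so no pair passed. Slc16a1 had r = 0.03 with Cldn5 and with Slco1c1, and r = 0.16 with Pecam1. With the mean of the other 5 genes it had r = 0.36. Slco1c1 stood furthest from the rest, at r between -0.22 and 0.29.

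**Figure D3:**
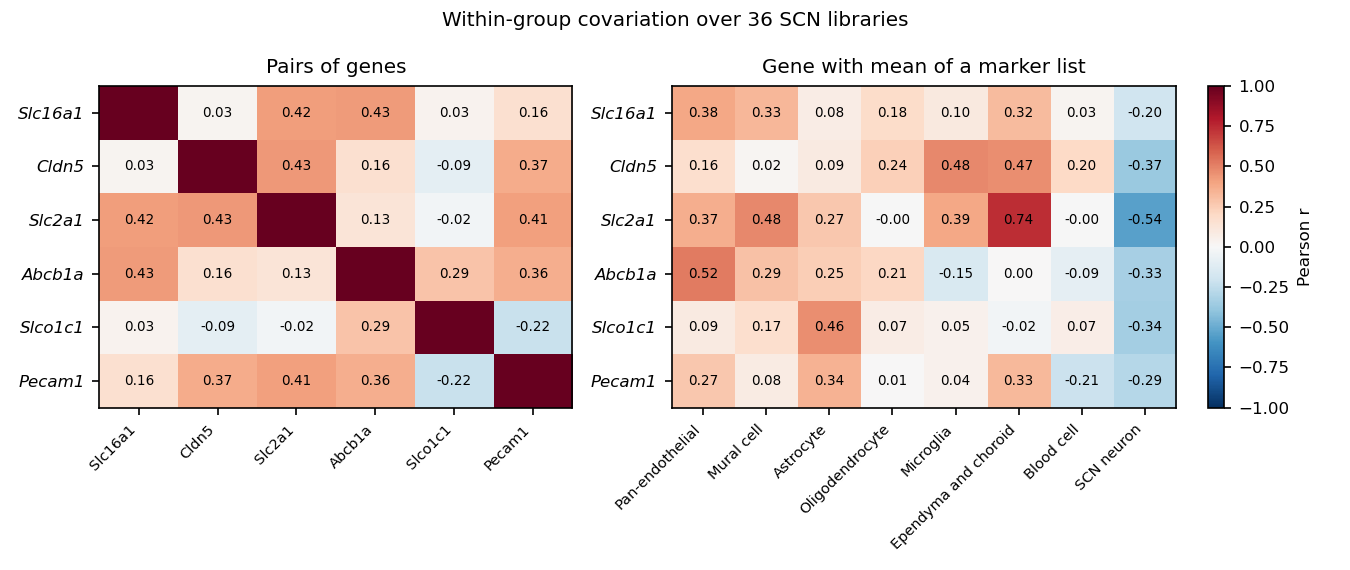
Pearson r over 36 SCN libraries, after group means were removed, between pairs of the 6 genes (left) and between each gene and the mean of a marker list (right); colour runs from blue (-1) to red (1). Among the lists, Slc2a1 with ependyma and choroid (0.74) is the 1 relation that passed adjustment.

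Pecam1 is on the pan-endothelial list, which was therefore used without it (19 genes). The r with this list was 0.52 for Abcb1a (permutation p = 0.00539, adjusted p over 48 relations 0.109) and 0.38 for Slc16a1 (permutation p = 0.0679, adjusted p = 0.272). Slc2a1 had 0.37, Pecam1 0.27, Cldn5 0.16 and Slco1c1 0.09. The endothelial genes were themselves loosely coupled, with a median r of 0.08 within the list, against 0.98 within the blood cell list and 0.73 within the ependymal list. At least 1 library listed Vwf, Sox18 and Emcn at 0, and the other genes of the list had counts in every SCN library, among them Cdh5 (3.67 to 11.3 CPM) and Flt1 (15.6 to 38.5 CPM).

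Of the 48 relations between the 6 genes and 8 cell type lists, Slc2a1 with the ependymal genes was the 1 that passed (r = 0.74, rho = 0.73, permutation p = 0.00012, adjusted p = 0.00576). It was 0.74 without the 2 farthest libraries, 0.65 within control and 0.87 within MCD. Sex was not removed from these deviations. In the SCN, 5 of 5 ependymal genes were higher in females (median log2 difference 0.29, 2 called), and Slc2a1 was at 0.07, not called. The part of sex in this relation was not tested. GLUT1 is known from ependyma and choroid plexus as well as from capillaries. The ependymal list held 5 of its 8 genes in the SCN table, namely Foxj1, Ccdc153, Tmem212, Rarres2 and Rsph1, and its summed level ran from 124 to 349 CPM. Cldn5 had r = 0.48 with the microglial list (adjusted p = 0.109), and Slc2a1 had r = -0.54 with the SCN neuron list (adjusted p = 0.156).

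The genes most like each pattern were listed over 12437 genes of at least 5 CPM, by Pearson r over the same 36 libraries. For Slc16a1 they were Ak7 (r = 0.68), Drc3 (0.67), Klhl1 (0.66), Sntn (0.65) and Spef2 (0.65). For the mean of the other 5 they were Scn7a (0.75), Oxct1 (0.71), Vwa5b2 (0.70), Gm8834 (0.68) and Gja1 (0.68). These values are the highest of many and describe these libraries only.

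In liver, hepatocytes and sinusoidal endothelium take the place of the barrier. Levels in the tissues were compared over 14491 genes tested in both, of which 93.6% were called (edgeR). This fit scales all 72 libraries together, whereas printed levels are scaled within a tissue, so the differences are not ratios of the printed levels. Slc16a1 was lower in the SCN than in liver by 2.08 log2 units, and so was Pecam1, while Slc2a1 was higher by 2.08. Cldn5 was higher in the SCN by 0.54 and Slco1c1 by 7.24. Slco1c1 was at 19.9 CPM in the SCN and at 0.09 CPM in liver. Abcb1a was at -0.74 (adjusted p = 6.27e-06), but at -0.11 (adjusted p = 0.452) with library totals in place of TMM and at -0.20 (adjusted p = 0.101) without the females. Scaling by totals raised each difference: Slc16a1 moved to -1.46, Pecam1 to -1.45 and Cldn5 to 1.18.

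The rule that chose the genes used SCN and not liver diet values, though the liver results of these data were known as well. Abcb1a, Slc2a1 and Pecam1 rose on MCD, Cldn5 fell and Slc16a1 was not called. There 46.6% of 20249 liver genes were called, so 4 of 6 members lies near that share; 25.3% were called higher and 21.2% lower. Of the calls, 54.4% were higher on MCD with TMM and 87.3% with library totals, which move the median gene from 0.02 to 0.27 log2 units.

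Abcb1a had the largest change. Control livers held a median of 5.95 CPM (2.10 to 28.0, n = 18) and MCD livers 17.1 CPM (8.45 to 39.2, n = 18). The log2 change was 1.28 ± 0.18 (adjusted p = 2.32e-06, edgeR), and the mean was higher on MCD at 6 of 6 times. It was called in the low and the high kind of library alone, at 0.86 and 1.89. Abcb1b, its close paralog, moved the same way, from 1.86 CPM on control to 3.07 CPM on MCD (0.73 ± 0.12, adjusted p = 2.36e-05), and reads may be split between such copies. Of 11 multidrug exporters, 8 were called (72.7%, against 46.6% over all liver genes) and 7 of these were higher with TMM, with Abcc4 at 1.48, Abcc3 at 0.75 and Abcc1 at 0.74 beside Abcb1a. P-glycoprotein and its relatives export drugs and conjugates at the hepatocyte surface.

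Females and males also differed in liver Abcb1a. On control, 12 male livers held 2.10 to 17.2 CPM with a median of 3.73, and 6 female livers 11.2 to 28.0 CPM with a median of 15.6. The males' 17.2 CPM belongs to the library labelled control CT08 a, and the other 11 lay at or below 9.91 CPM, under every female. On MCD, males held 8.45 to 26.2 CPM (median 12.2) and females 19.1 to 39.2 CPM (median 27.0). The female was the highest of its group of 3 at 6 of 6 times on either diet. The log2 difference was 1.49 ± 0.18 (adjusted p = 2.72e-06, edgeR), in a comparison added after the values were seen in which 9.44% of liver genes were called; of these calls, 54.7% were higher in females with TMM and 70.6% with library totals. In the SCN the same difference was -0.04 ± 0.09.

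**Figure D4:**
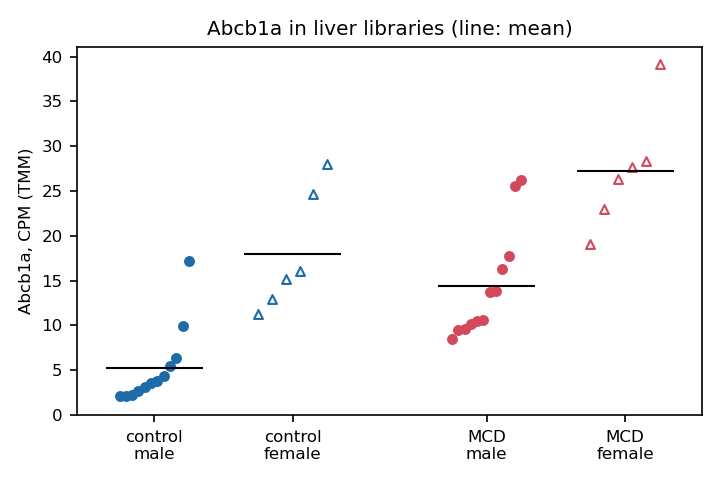
Abcb1a level (CPM, vertical axis) in each of 36 liver libraries by diet and sex (horizontal axis), sorted within a group; lines are means. Female livers of a diet lie above most males, and the highest control male (17.2 CPM) is the library labelled control CT08 a.

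Slc2a1 and Pecam1 rose by less. Slc2a1 went from 8.67 ± 2.44 to 12.2 ± 2.95 CPM (SD, n = 18 each), a log2 change of 0.48 ± 0.13 (adjusted p = 0.00239), with a higher mean at 6 of 6 times. Within the low kind it was 0.34 (adjusted p = 0.0858) and within the high kind 0.57 (adjusted p = 0.0626, edgeR). Pecam1 went from 23.0 ± 2.84 to 26.2 ± 2.83 CPM, a change of 0.19 ± 0.06 (adjusted p = 0.00698), also higher at 6 of 6 times. It was 0.19 within the low kind (adjusted p = 0.0546) and 0.13 within the high kind (adjusted p = 0.336), so within the kinds neither gene was called. The Pecam1 call was also lost without replicate 1 (0.17, adjusted p = 0.146) and without replicate 2 (0.14, adjusted p = 0.0587), and with library totals the change was 0.45 (adjusted p = 2.06e-05, edgeR). With library totals the Slc2a1 change was 0.75 (adjusted p = 6.25e-05, edgeR). The kinds hold the diets in unequal numbers. Of 14 alternatives, the Slc2a1 call was lost in 2 and the Pecam1 call in 4, all of them named here. Both calls held in the fit of all liver libraries with a term for library kind.

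Cldn5 fell in liver from 8.36 ± 1.27 to 6.98 ± 1.23 CPM (SD, n = 18 each). Its log2 change was -0.27 ± 0.06 (adjusted p = 0.000764), with a lower mean at 6 of 6 times and all MCD libraries below all controls at 2 of them. Nothing is read from that last count, since the share over all liver genes was not determined. With library totals the change was -0.01 (adjusted p = 0.924), while the median gene then stood at 0.27. In the low kind alone it was -0.21 (adjusted p = 0.162) and in the high kind -0.45 (adjusted p = 0.00558, edgeR). Slco1c1 was at or below 0.58 CPM in every liver library, and its diet change was not called (adjusted p = 0.323).

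Slc16a1 was not called by diet in liver. The control level was 60.1 ± 16.0 CPM and the MCD level 61.6 ± 23.7 CPM (SD, n = 18 each), a log2 change of 0.00 ± 0.08 with a 95% interval of -0.18 to 0.17 (adjusted p = 0.997). Without the library labelled control CT08 a it was 0.07 (adjusted p = 0.294), and with library totals 0.24 (adjusted p = 0.0503), near the median gene. On MCD the female was the highest of its group of 3 at 6 of 6 times, up to 138 CPM at CT0. Over both diets the sex difference was 0.27 ± 0.09 (adjusted p = 0.052) with all libraries and 0.32 (adjusted p = 0.000292) without that library.

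Shares of other endothelial and barrier genes called by diet in liver lay on either side of the 46.6% over all liver genes. Of 20 pan-endothelial genes, 4 were called higher (Ly6a 0.78, Cd34 0.61, Pecam1 and Eng 0.17) and 2 lower (Sox17 -0.15 and Flt1 -0.14), 30% in all. Of 10 sinusoidal endothelial genes, Lyve1 (0.70) and Stab2 (0.23), both receptors for hyaluronan, were called higher and Gpr182 (-0.17) lower, again 30%. Of 13 barrier sealing genes, 5 were called higher, with the lipid carrier Mfsd2a at 1.1, the junction proteins Marveld3 at 1.00 and F11r at 0.39, and 4 lower, Cldn5 among them (69.2%). Of 20 transport genes, 14 were called (70%) and 13 of these were higher, with Slc38a5 (3.75) and Slc19a3 (2.59) at under 1 CPM and Slc7a1 at 1.43. Directions are those with TMM, under which 25.3% of all genes were called higher and 21.2% lower; with library totals, 87.3% of calls were higher. Microglial and macrophage genes moved beside them: 7 of 8 were called higher on MCD (87.5%), with Trem2 at 2.39 and Cx3cr1 at 1.91, and their summed level had a median of 195 CPM in control and of 275 CPM in MCD livers. Of 6 blood cell genes, 4 were called, all lower (66.7%). Their part in the liver values of the members was not tested.

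Daily rhythm in liver was called for 37.0% of genes (edgeR). Slc16a1 had a range of 0.91 ± 0.12 log2 units with a peak at CT23.1 (adjusted p = 7.46e-06). On control its libraries held 77.7, 77.3 and 88.3 CPM at CT0 and 42.0, 40.3 and 41.6 CPM at CT12. On MCD they held 72.3, 75.0 and 138 CPM at CT0 and 42.3, 32.3 and 47.7 CPM at CT12. The groups at CT0 and CT12 were far apart on either diet. At CT8 on control, the library labelled a held 73.2 CPM and the other 2 held 31.2 and 39.6 CPM. Without it the range was 1.03 (adjusted p = 1.26e-09). The difference in rhythm between diets was then 0.69 (adjusted p = 0.0226), against 0.48 (adjusted p = 0.448) with all libraries; 4.87% of genes were called in that comparison.

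**Figure D5:**
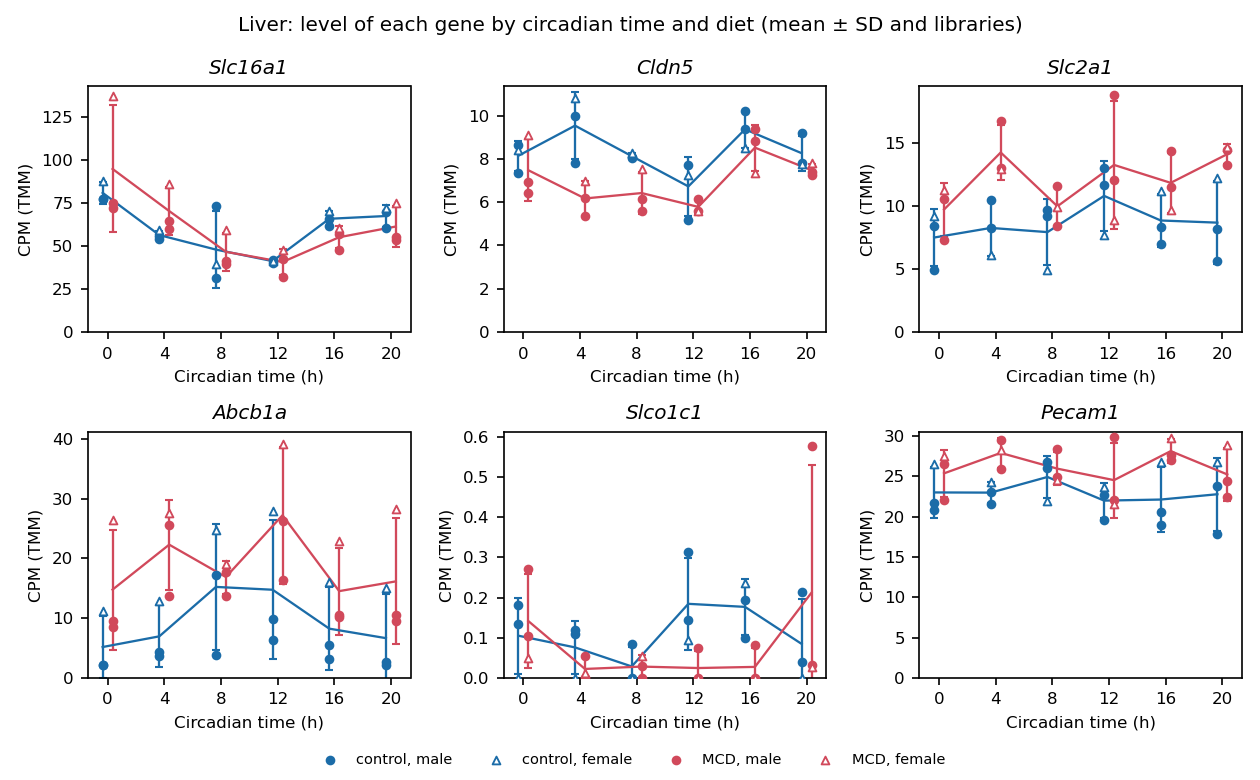
Liver levels (CPM, vertical axis) of the 6 genes by circadian time (horizontal axis, h), with libraries, means and SDs drawn as in the plot of SCN levels. Slc16a1 falls from CT0 to CT12 on either diet, Abcb1a, Slc2a1 and Pecam1 means lie higher on MCD at all 6 times, and Slco1c1 stays under 1 CPM.

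Abcb1a in liver had a range of 1.31 ± 0.25 log2 units with a peak at CT9.8 (adjusted p = 0.000787). Without replicate 1 of every group the range was 1.21 (adjusted p = 0.0632), and without replicate 2 it was 1.07 (adjusted p = 0.0793). Within the low kind it was 0.97 (adjusted p = 0.138) and within the high kind 1.20 (adjusted p = 0.0782). Over all 14 alternatives it ran from 0.97 to 1.73. Cldn5 had a range of 0.27 ± 0.09 with a peak at CT20.8 (adjusted p = 0.0435), and this call was lost in 24 of 36 fits without a single library (0.23 to 0.30) and in 11 of 14 other alternatives (0.15 to 0.35). Slc2a1 (0.23 ± 0.18) and Pecam1 (0.07 ± 0.08) were not called (adjusted p = 0.556 and 0.772), and neither was Slco1c1 (adjusted p = 0.29, edgeR).

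The 3 genes that were rhythmic in the SCN had another daily course in liver. In a model of both tissues the cosine and sine components differed by 0.94 log2 units for Slc16a1 (adjusted p = 1.57e-05), whose fitted peak lay at CT4.4 in the SCN and CT23.1 in liver. They differed by 0.68 for Cldn5 (adjusted p = 0.000235), with peaks at CT21.0 and CT20.8 but ranges of 0.95 and 0.27. For Abcb1a the difference was 1.48 (adjusted p = 0.00968), with peaks at CT17.0 and CT9.8. It was lost without replicate 1 (1.22, adjusted p = 0.2) or replicate 2 (1.21, adjusted p = 0.232). In this comparison, added after the values were seen, 39.5% of 14491 genes were called (edgeR), and Slc2a1, Slco1c1 and Pecam1 were not (adjusted p = 0.39, 0.0649 and 0.556).

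Some gene models overlap others, and whether counting used the strand is not given in the sources used here. In GENCODE, Slc2a1 lies over the antisense genes Gm12867 and Gm12868 and the microRNA gene Mir1957a, Abcb1a over Gm42684 and, on the other strand, Gm42686, and Slc16a1 over the intronic transcripts Gm43581 and Gm43585. Counts of these 3 genes are uncertain to that extent. Cldn5, Slco1c1 and Pecam1 overlap no other gene there.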

How the data were processed

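RNA-seq libraries came from 36 SCN and 36 liver samples. Raw read counts were deposited by the authors, for genes in 1 table per tissue and for exon bins in 1 file per library, per the file headers. Trimmomatic, HISAT2, StringTie, DESeq2 and build GRCm39 are named per the submitters' processing notes; counter, annotation and strand setting: not given in the sources used here. Both gene tables give 2 control male columns at CT8 the same name, used as replicates a and b. All 34 SCN exon files whose gene column carries a number were most like that column.

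Gene counts were tested with edgeR 4.0.16 (R 4.3.3): TMM, filterByExpr (minimum count 10, leaving 15759 SCN and 20249 liver genes), robust quasi-likelihood fits of 12 groups of diet and time plus sex, and Benjamini-Hochberg adjustment over all genes. Diet is the mean over times of MCD minus control, and rhythm a 2 df test of 24 h components. Correlations used log2 CPM (prior count 2) and 100000 two-sided permutations within groups. Exon bins were tested with diffSpliceDGE. Scripts were tested on simulated data: 100% of 200 SCN genes changed 1.5-fold by diet were recovered, and 76% in liver. Nothing says that libraries of a group are separate animals beyond their labels, so p-values measure the spread between these samples. Members and gene lists were chosen with earlier results of these data known. From each list the called genes with the largest changes (at most 4) are named, or, if none is called, the 2 largest of at least 5 CPM; Bsg, Slc16a7, Cdh5, Vwf, Sox18, Emcn and list genes outside this rule were named after their values were seen. Comparisons of sex and of rhythm by diet in liver, of rhythm between tissues, and of members with marker lists were added after the values were seen. Alternatives used DESeq2 1.42.0, limma 3.58.1, library totals, no filter, left-out libraries and replicates, and liver library kinds. Some results of listed genes are not reported here.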

Additional observations from a re-analysis of the deposited data

Results flagged for a closer look

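The 24 h component differed between SCN and liver for 3 of the 6 genes, by an edgeR test of the difference over all 72 libraries that treats the tissues as independent. It differed by 0.94 log2 units for Slc16a1 (adjusted p = 1.57e-05), by 0.68 for Cldn5 (adjusted p = 0.000235) and by 1.48 for Abcb1a (adjusted p = 0.00968). For Slc16a1 and Cldn5 the call held under all 7 alternatives, with differences of 0.87 to 1.08 and of 0.63 to 0.74. For Abcb1a it was lost in 2 of 7, without replicate 1 or 2 of every group.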

How the results depend on the processing

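Of 2226 re-fits of single values of the members, 2134 stayed on their side of the threshold or, for correlations, within their spread, 51 lost a call and 13 gained a call, and 28 correlations between pairs of members moved. No called value changed sign, but values that were not called did, such as the Slc16a1 liver diet change and r of Slc16a1 with Abcb1a (0.43, and -0.29 with group means kept). The SCN rhythm calls of Slc16a1, Cldn5 and Abcb1a were kept in all their re-fits. In the SCN, 5 libraries lie under 30 M counts, which limits their precision.

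Counts of called genes moved more. SCN diet (10 genes) gave 47 with DESeq2, 19 with limma, 0 to 14 without a replicate number, and 7 to 17 without 1 library. Without replicate 2, edgeR gave 0 genes, with 414 at an unadjusted p under 0.05. SCN rhythm (5425) gave 2703 without replicate 2 and 4797 to 5873 without 1 library. The SCN rhythm difference (2) gave 7 with DESeq2, 1 without replicate 1, 2 or 3, 11 without libraries under 30 M counts, and 1 to 5 without 1 library. SCN sex (1558) gave 20 without replicate 1, 73 without libraries under 30 M counts, and 771 to 2377 without 1 library.

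Liver diet (9426) gave 4893 in the low and 5739 in the high kind, and liver rhythm (7490) 3940 and 1359, with 3291 and 4425 without replicate 1 or 2 and 6875 to 7672 without 1 library. The liver rhythm difference (986) gave 2073 with DESeq2, 4 to 537 without a replicate number and 634 to 1243 without 1 library. Liver sex (1911) gave 664 and 837 without replicate 1 or 2, 372 and 646 in the low and high kinds, and 1396 to 2478 without 1 library. The 24 h rhythm, SCN against liver (5717) gave 2780 to 4994 without a replicate number. Exon usage (5) gave 2 with the gene-level F test and 3 to 4 without a replicate number. Of 15 pairs, 6 had an absolute r of at least 0.3, against 3 with group means kept, 10 within control, and 3 to 10 without a replicate number. Fewer samples entered the left-out and single-kind fits; otherwise the cause was not tested.

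Replicate numbers were not taken to pair the samples, under a rule that asked for a correlation of deviations over 0.1 in every pair. At the same number it exceeded 0.1 in 9 of 16 SCN pairs (r from -0.06 to 0.36). In liver it did so in 14 of 16 pairs (r from -0.05 to 0.61). The female has the same number in every group, so these correlations cannot tell pairing from a difference by sex. Whether the numbers pair the samples was therefore not decided. The replicate block takes the place of the sex term. With it on the numbered libraries, SCN diet gave 4 genes, the SCN rhythm difference 1 and the liver 24 h rhythm, difference between diets, 651. Without the block and with the sex term, the same libraries gave 4, 1 and 798.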
